A study of Mus musculus with 2 samples.

Results

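The genes described here are the mouse microRNA genes of the Mir1, Mir133 and Mir206 muscle loci, 8 of the 2202 microRNA genes counted. They were picked out by their names in the GENCODE M21 annotation: Mir206, Mir133b, Mir1a-1, Mir133a-2, Mir1a-2, Mir133a-1, Mir1b and Mir133c. The data are microRNA-seq of gastrocnemius, a large muscle of the calf, from adult male B6CASTF1/J mice aged 18 to 20 months, the first-generation offspring of C57BL/6J and CAST/EiJ parents. The labels give 1 group of 2 libraries, replicates 2 and 1, from separate biosamples with inserts under 30 nt, and name no treatment. Both samples carry the same donor record and nothing states that they came from separate animals, so p-values measure only the differences between these libraries, which may be technical.

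These genes make the best known microRNAs of striated muscle. miR-1 and miR-206 share a seed, the stretch near the 5′ end that pairs with target messages, and both promote the differentiation of muscle precursor cells in mouse. miR-133 has another seed and is known for favouring the proliferation of myoblasts, in part by repressing the transcription factor SRF. A Mir1 or Mir206 gene and a Mir133 gene lie next to each other in each of the paired loci and are made from shared primary transcripts, driven in muscle by factors such as MyoD, MEF2 and SRF. miR-206 is largely restricted to skeletal muscle and is known in mouse for its part in the regeneration of neuromuscular synapses, while miR-1 and miR-133a are also made in the heart.

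The RefSeq sequence table (build GRCm38.p6) held entries for 3 of the 8 genes, Mir206, Mir133b and Mir1a-1. The precursors of Mir206 and Mir133b are shown first because, of all partners of a locus, their counts lay furthest apart, with the mature arms in capitals, 5′ to 3′ on the plus strand.
Mir206 precursor: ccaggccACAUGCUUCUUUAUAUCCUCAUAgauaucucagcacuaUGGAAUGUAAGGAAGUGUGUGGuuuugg
Mir133b precursor: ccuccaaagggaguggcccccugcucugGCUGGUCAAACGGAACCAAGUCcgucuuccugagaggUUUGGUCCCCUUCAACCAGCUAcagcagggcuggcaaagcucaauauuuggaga
The mature sequences follow, with the seed (bases 2 to 8) in capitals, since the length over which they differ from their relatives bears on which reads can be assigned.
miR-206-3p: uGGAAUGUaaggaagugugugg
miR-206-5p: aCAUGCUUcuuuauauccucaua
miR-133b-3p: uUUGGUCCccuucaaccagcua
miR-133b-5p: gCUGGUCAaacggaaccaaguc
miR-1a-1-5p: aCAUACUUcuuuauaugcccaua

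The 8 genes lie at 4 places of the mm10 assembly. Mir206 (ENSMUSG00000065559.1, chr1:20679010-20679082) and Mir133b (ENSMUSG00000065480.1, chr1:20682769-20682887) lie on the plus strand of chromosome 1, 3686 bases apart, and both overlap exons of the long non-coding RNA gene Gm28653 on the same strand. Mir1a-1 (chr2:180389048-180389124) and Mir133a-2 (chr2:180398379-180398482) lie on the plus strand of chromosome 2 with 9254 bases between them, and no other M21 gene overlaps either. Mir1a-2 (chr18:10785481-10785552) and Mir133a-1 (chr18:10782909-10782976) lie on the minus strand of chromosome 18 with 2504 bases between them. Both are in an intron of the host gene Mir133a-1hg on their own strand and in an intron of Mib1, which encodes a ubiquitin ligase of Notch signalling, on the opposite strand. Mir1b (chr18:10785446-10785567) lies on the plus strand across Mir1a-2, so the same DNA is annotated as a microRNA gene on each strand. Mir133c (chr2:29475215-29475294) stands alone on the minus strand, opposite an intron of the Mediator subunit gene Med27.

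Most reads could not be counted for any gene. Replicate 2 had 2156222 reads assigned to microRNA genes, 19.8% of 10872717, and replicate 1 had 4442692, 15.7% of 28387571, a 2.06-fold difference in assigned depth. Multimapping reads made up 70.2% in replicate 2 and 73.8% in replicate 1, or 3.54 and 4.71 multimapping reads for each assigned count. These are outside the gene counts and the tables do not say which genes they match. Values below are counts on the gene's strand and CPM, counts scaled to a common total of assigned counts. Each small RNA read can span a whole mature microRNA, so counts were not divided by length. A count of 0 allows up to 1.39 CPM in replicate 2 and 0.675 CPM in replicate 1 (3 counts), and this limit and the 95% intervals cover counting error only.

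How far each gene can be told from its relatives differed within the set. Of the 54 windows of 20 bases in the Mir206 precursor, all 54 were found at no other microRNA locus. Its longest stretch in common with Mir1a-1 or Mir1a-2 was 13 bases, although the seed is shared. Against its closest site in Mir1a-1, miR-206-3p has the changes G11A, G17A, G21A and G22U, counted from its 5′ end with its own base first. Mir133b shared 2 of 100 windows, both within its 3p arm, with Mir133a-1 and Mir133a-2. Whole miR-133b-3p, of 22 bases, was found in 1 precursor, but its first 21 bases were found in 3, since it differs from its closest site in Mir133a-2 by A22G alone.

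The paired copies shared more. Mir1a-1 and Mir1a-2 had a stretch of 28 bases in common, and 9 of the 58 windows of Mir1a-1 and 9 of the 53 of Mir1a-2 were shared. Mir133a-1 and Mir133a-2 had 31 bases in common, with 17 of 49 and 17 of 85 windows shared. A read of a mature microRNA that lies wholly within such a stretch matches more than one locus. miR-1a-1-5p, in contrast, was found in 1 precursor also without its last 3 bases. All 61 windows of Mir133c were found at no other microRNA locus. Of all 2202 microRNA genes counted 1115, or 50.6%, shared no window, and Mir206 and Mir133c were the members among them.

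**Figure D1:**
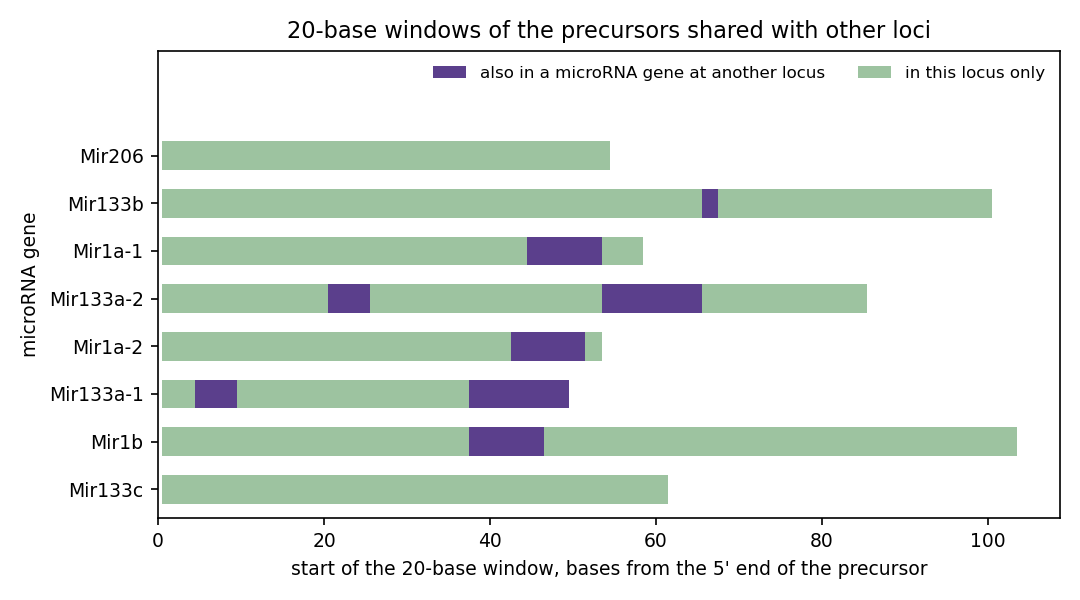
Windows of 20 bases along each precursor, by start position from the 5′ end (x axis, bases), for the 8 genes (y axis). Purple windows also occur in a microRNA gene at another locus, on either strand, and green ones do not. Mir206 and Mir133c have no purple window, Mir133b has 2, and Mir133a-1 and Mir133a-2 have 17 each.

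Mir206 held nearly all assigned counts of the set. It had 132694 counts or 61540.0 CPM in replicate 2 and 52468 counts or 11810.0 CPM in replicate 1, a mean of 36675 ± 35164 CPM (SD, n = 2). Replicate 2 was thus the high library, and the SD was almost as large as the mean. Mir206 ranked 2 among all genes in replicate 2, between Mir378a at 185734 CPM and Mirlet7g at 61074 CPM, and ranked 20 in replicate 1, between Mir30d at 11918 CPM and Mir139 at 11410.2 CPM. It made up 99.8% of the counts of the 8 genes in replicate 2 and 97.9% in replicate 1 (Wilson 95% intervals 99.8 to 99.8 and 97.7 to 98.0). These ranks and shares are those of assigned counts. Multimapping reads, 70.2% of reads in replicate 2 and 73.8% in replicate 1, are outside them. How the ranks would change with those reads was not tested.

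The 8 genes together took 6.17% of assigned counts in replicate 2 (6.13 to 6.20) and 1.21% in replicate 1 (1.20 to 1.22), or 3.69% ± 3.51 (SD, n = 2). Without Mir206 the share was 0.0118% in replicate 2 (0.0104 to 0.0133) and 0.0257% in replicate 1 (0.0243 to 0.0272). The order of the libraries was therefore opposite with and without Mir206, and neither pair of intervals overlapped.

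Mir1a-2 was the next highest. It had 175 counts or 81.2 CPM in replicate 2 and 815 counts or 183 CPM in replicate 1, 132 ± 72.3 CPM on average (SD, n = 2). In assigned counts Mir206 exceeded it 758-fold in replicate 2 and 64.4-fold in replicate 1. Mir206 shared none of its 54 windows with another microRNA locus, while Mir1a-2 shared 9 of 53 with Mir1a-1. Reads that match both Mir1a-1 and Mir1a-2 are outside these counts, so the folds do not compare miR-206 with all of miR-1. The other Mir1 copy, Mir1a-1, had 15 counts or 6.96 CPM in replicate 2 and 85 counts or 19.1 CPM in replicate 1. Both Mir1 copies were lower in replicate 2, and their values do not overlap with each other.

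The counts of Mir1a-2 rest on strand. In the column without strand Mir1a-2 and Mir1b both had 0 counts in both libraries. That column leaves 576791 reads of replicate 2 and 1292884 of replicate 1 as ambiguous between genes, and the column for the gene's strand leaves none. On its own strand Mir1b had 1 count in replicate 2 and 0 in replicate 1, at or under the limit of detection. The column for the opposite strand gave Mir1b 175 and 815 counts in replicates 2 and 1, which are the sense counts of Mir1a-2. The reads over this stretch thus came from the strand of Mir1a-2, with the exception of 1. The other 6 genes had the same counts with and without strand and 0 on the opposite strand.

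Among the Mir133 genes, Mir133b had 34 counts or 15.8 CPM in replicate 2 and 159 counts or 35.8 CPM in replicate 1. Mir133a-1 had 24 counts or 11.1 CPM and 66 counts or 14.9 CPM in replicates 2 and 1, and Mir133a-2 had 5 counts or 2.32 CPM and 17 counts or 3.83 CPM. All 3 were lower in replicate 2 by value, by the test below for Mir133b alone. Mir133c had 0 counts in both libraries. The 4 Mir133 genes summed to 29.2 CPM in replicate 2 and 54.5 CPM in replicate 1, against 88.6 CPM and 203 CPM for the 3 Mir1 genes. These sums leave out reads that match several copies. Mir133a-1 shared 17 of 49 windows and Mir1a-2 9 of 53, so the sums do not rank miR-133 against miR-1.

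Ordered by mean level the set ran from Mir206 over Mir1a-2 and Mir133b at 25.8 ± 14.2 CPM to Mir133a-1 at 13.0 ± 2.63 and Mir1a-1 at 13.0 ± 8.61 CPM, then Mir133a-2 at 3.07 ± 1.07 CPM (SD, n = 2). Mir206 and Mir1a-2 each lay apart from all lower genes in both libraries. Mir133b was above Mir1a-1 and Mir133a-1 within each library, although its value in replicate 2 was below that of Mir1a-1 in replicate 1. Mir1a-1 and Mir133a-1 changed places, Mir133a-1 being higher in replicate 2 and Mir1a-1 in replicate 1, so this pair does not differ beyond its spread. The whole order is one of assigned counts, including the step from Mir206 to Mir1a-2. Mir206 shares no window with another microRNA locus, while each gene from Mir1a-2 to Mir133a-2 shares windows with another of them. How many reads of these lower genes are among the multimapping ones was not tested.

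**Figure D2:**
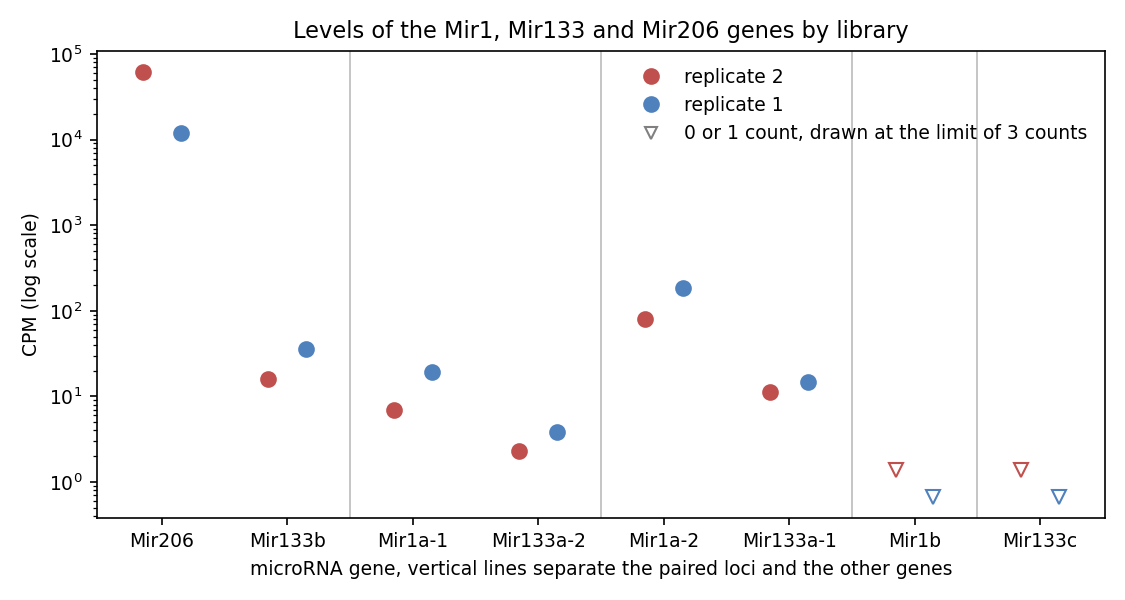
CPM (y axis, log scale) of the 8 genes (x axis) in replicate 2 (red, left) and replicate 1 (blue, right), grouped by paired locus with Mir1b and Mir133c last. Open triangles mark 0 or 1 count and stand at the limit of 3 counts, 1.39 and 0.675 CPM. Mir206 is higher in replicate 2, and Mir133b, Mir1a-1, Mir133a-2, Mir1a-2 and Mir133a-1 are lower there by value.

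By locus, Mir206 and Mir133b summed to 61556 CPM in replicate 2 and 11846 CPM in replicate 1. Mir1a-2 and Mir133a-1 summed to 92.3 CPM in replicate 2 and 198 CPM in replicate 1. Mir1a-1 and Mir133a-2 summed to 9.28 CPM in replicate 2 and 23.0 CPM in replicate 1. In each of the 3 loci the Mir1 or Mir206 gene had more assigned counts than its Mir133 partner in both libraries, by very different factors. The first 21 bases of miR-133b-3p were found in 3 precursors, while both miR-206 arms were found in 1. Partners can thus differ in how many of their reads can be assigned, and how many reads this concerns was not tested. The factors do not measure the output of a locus.

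Mir206 had 3903 counts for each of Mir133b in replicate 2 (exact 95% interval 2793 to 5636) and 330.0 in replicate 1 (282 to 388). The intervals lie far apart, and the ratio was 11.8 times as high in replicate 2 (p = 1.00e-54, adjusted over the 3 loci 3.00e-54, Fisher's exact test of the counts, two-sided). Mir1a-2 had 7.29 counts for each of Mir133a-1 in replicate 2 (4.74 to 11.7) and 12.3 in replicate 1 (9.60 to 16.1). Mir1a-1 had 3.0 counts for each of Mir133a-2 in replicate 2 (1.04 to 10.6) and 5.00 in replicate 1 (2.95 to 8.98). Both ratios were lower in replicate 2 by value. By the same exact test the difference of Mir1a-2 over Mir133a-1 had p = 0.0457, adjusted 0.0686, and that of Mir1a-1 over Mir133a-2 had p = 0.356, adjusted 0.356. Neither passed after adjustment, which does not show that the ratios were equal.

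**Figure D3:**
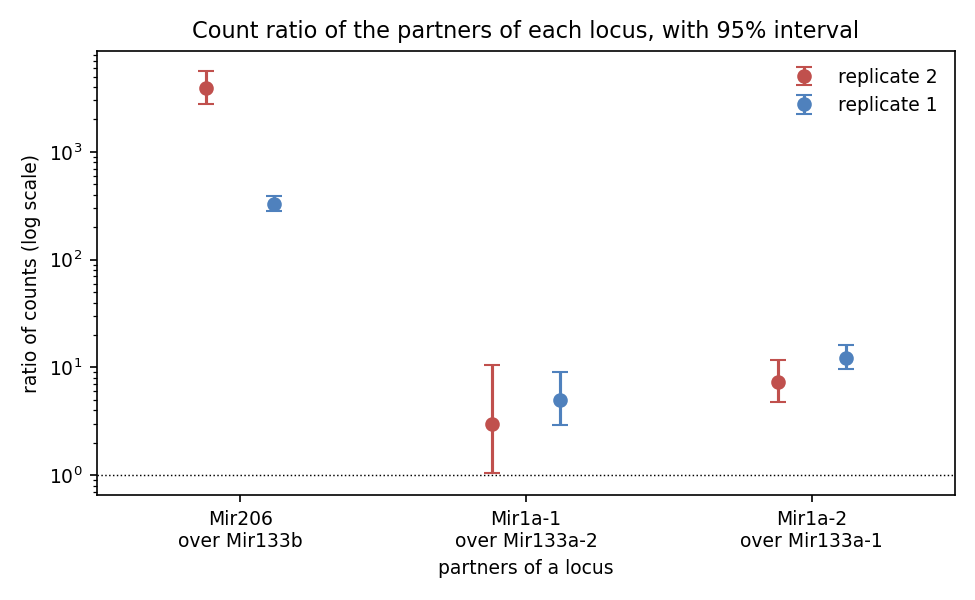
Counts of the Mir206 or Mir1a gene divided by those of its Mir133 partner (y axis, log scale) for the 3 paired loci (x axis), in replicate 2 (red, left) and replicate 1 (blue, right), with exact 95% counting intervals. Mir206 over Mir133b was 3903 in replicate 2 and 330.0 in replicate 1, while the intervals overlap in the other loci. Multimapping reads are not included.

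The comparison of replicate 2 with replicate 1 asks how far these genes differ between samples with the same labels. Of 380 microRNA genes with 10 or more counts, 235 or 61.8% differed, 30.3% higher and 31.6% lower in replicate 2, in an exact binomial test (two-sided, Benjamini-Hochberg adjusted over all genes, called at an adjusted p under 0.05). Of the 8 genes 6 were tested and 4 differed, 1 higher and 3 lower in replicate 2, a share near that of all genes. The median log2 ratio of replicate 2 over replicate 1 was −0.76 over the 6 genes and 0.02 over all genes tested. The SD of the log2 ratio over the 228 genes with 100 or more counts was 1.13. The test takes counting error alone into account and compares the libraries, not conditions. In bulk tissue, fewer cells of a type and less RNA per cell cannot be told apart.

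Mir206 was 5.56-fold higher in replicate 2, with a log2 ratio of 2.47 (95% counting interval 2.46 to 2.49), and its p was below the smallest number the software could represent. Among the 228 genes with 100 or more counts it ranked 5 from the highest ratio, and 98.2% of all tested genes had a lower one. Mir206 and Mir133b are neighbours on 1 strand, and their ratios had opposite signs. That of Mir133b rests on 34 counts in replicate 2 and 159 in replicate 1, without reads that also match Mir133a-1 or Mir133a-2.

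Mir133b had a log2 ratio of −1.04 (−1.67 to −0.55), with an adjusted p of 5.79e-05 in the exact binomial test. Mir1a-2 stood at −1.07 (−1.33 to −0.85, adjusted p = 1.43e-21, exact binomial test), and Mir1a-1 at −1.25 (−2.27 to −0.56, adjusted p = 6.87e-04, exact binomial test). These 3 lay close together and within that SD of the genes with 100 or more counts or just beyond it. Of all tested genes 17.6% had a lower ratio than Mir133b, 16.6% a lower one than Mir1a-2 and 13.2% a lower one than Mir1a-1. The ratios of Mir133a-1 at −0.30 (−1.06 to 0.37, adjusted p = 0.459, exact binomial test) and Mir133a-2 at −0.47 (−2.42 to 0.87, adjusted p = 0.585, exact binomial test) did not pass. Both intervals include a 2-fold decrease as well as no change.

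**Figure D4:**
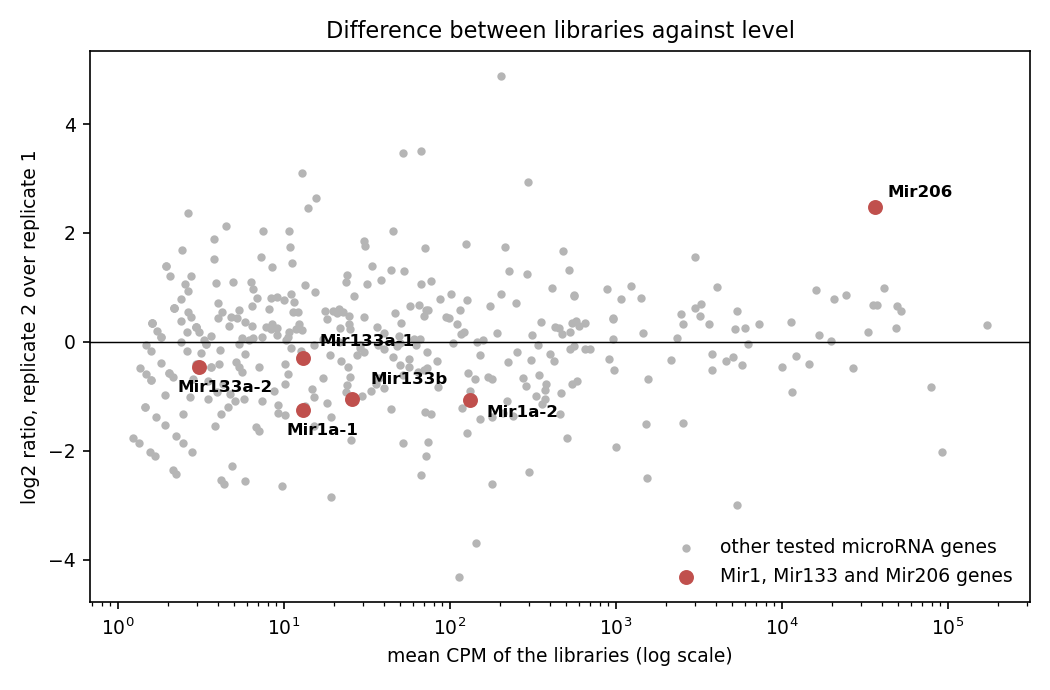
Log2 ratio of replicate 2 over replicate 1 (y axis) against mean CPM (x axis, log scale) for the 380 tested microRNA genes, with the 6 tested Mir1, Mir133 and Mir206 genes in red. Mir206 stands at 2.47 among the abundant genes, and the other 5 lie between −1.25 and −0.30.

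Apart from Mir206, Mir1a-2 held most counts of the set in both libraries. Of the 254 counts outside Mir206 in replicate 2 and the 1142 in replicate 1, Mir1a-2 made up 68.9% (Wilson 95% interval 63.0 to 74.3) and 71.4% (68.7 to 73.9). Mir133b made up 13.4% in replicate 2 (9.74 to 18.1) and 13.9% in replicate 1 (12.0 to 16.1), and Mir1a-1 5.91% (3.61 to 9.51) and 7.44% (6.06 to 9.11). Of these shares none differed past the threshold. For Mir133a-1 the shares were 9.45% in replicate 2 (6.43 to 13.7) and 5.78% in replicate 1 (4.57 to 7.29), and for Mir133a-2 they were 1.97% (0.844 to 4.52) and 1.49% (0.931 to 2.37). The share of Mir133a-1 was the one that differed most by p, at 0.0466 in Fisher's exact test of the counts and 0.233 adjusted over the 5 genes. The adjusted p of the other 4 lay between 0.722 for Mir1a-2, Mir1a-1 and Mir133a-2 and 0.92 for Mir133b, the locus partner of Mir206. These tests compare the libraries and cover counting error only.

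**Figure D5:**
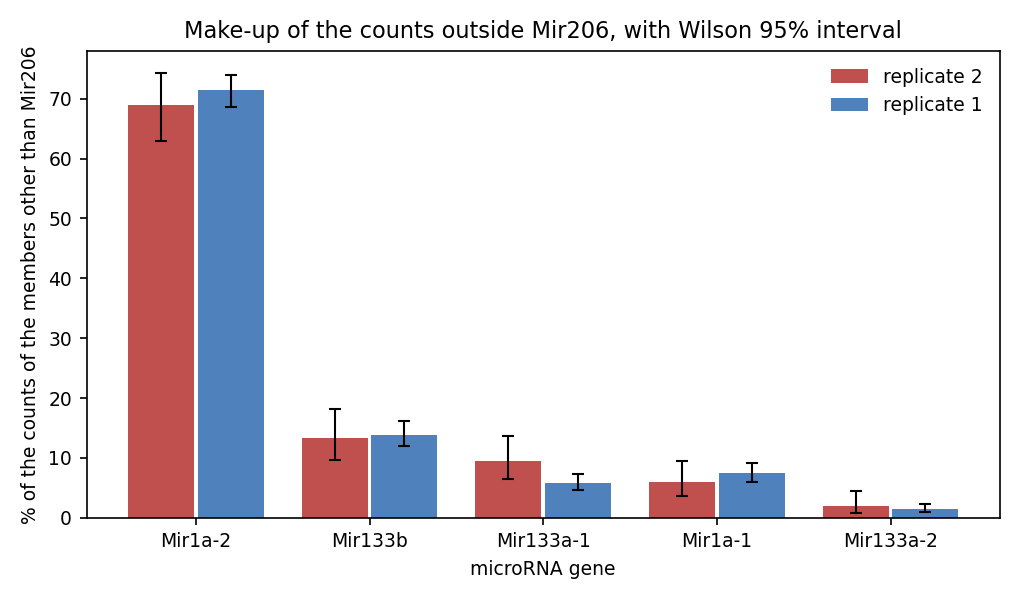
Share (y axis, %) of each gene (x axis) in the counts of the set without Mir206, in replicate 2 (red, left) and replicate 1 (blue, right), with Wilson 95% intervals. Mir1a-2 holds 68.9% in replicate 2 and 71.4% in replicate 1, and the intervals overlap for all 5 genes drawn.

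The other microRNA genes known from striated muscle, Mir499, Mir208a, Mir208b and Mir486, did not all go one way. Mir499, in the myosin gene Myh7b, was at 518 CPM in replicate 2, against 70.9 CPM in replicate 1 (log2 ratio 2.95). Mir208b, in the slow myosin gene Myh7, had 108 CPM in replicate 2 and 34.0 CPM in replicate 1 (1.73), and Mir208a, in Myh6, 23.7 and 2.03 CPM (3.10). Mir486, known from muscle and from red blood cells, had 3417 and 4241 CPM in replicates 2 and 1 (−0.22). All 4 passed the exact binomial test, 3 higher and 1 lower in replicate 2. Of all tested genes 61.8% passed it, 30.3% higher and 31.6% lower. The 3 microRNA genes that lie in myosin genes had the sign of Mir206. Mir208a rests on 51 counts in replicate 2 and 9 in replicate 1.

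Among genes with 100 or more counts the 5 nearest to Mir206 in log2 ratio, over 2 libraries only, were Mir128-2 (2.04), Mir499 (2.95), Mir137 (1.85), Mir3107 (1.79) and Mir598 (1.75). Mir206 lay well above them in level, since Mir499, the highest of the 5, had 518 CPM in replicate 2. Nearest to Mir133b were Mir425 (−1.06), Mir378b (−1.02) and Mir210 (−1.07).

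MicroRNA genes of other cell types also differed between the libraries, and their part in the differences above was not tested. The endothelial gene Mir126a had 55386 CPM in replicate 2 and 104418 CPM in replicate 1, and Mir126b had 0 in both. The erythroid genes Mir451a and Mir144 summed to 109 CPM in replicate 2 and 777 CPM in replicate 1, both lower in replicate 2. Mir126a and both erythroid genes thus had the sign opposite to Mir206. The smooth muscle genes Mir143 and Mir145a, both higher in replicate 2, summed to 56840.2 CPM there and to 48844 CPM in replicate 1. The 5 leukocyte genes, led by Mir150, summed to 3632 CPM in replicate 2 and 2285 CPM in replicate 1, with 2 higher, 2 lower and Mir142b at 0. The 5 fibroblast and stroma genes, led by Mir140, summed to 4837 and 3256 CPM in replicates 2 and 1, with 1 higher, 2 lower, 1 not passing and Mir199a-1 at 0. The leukocyte and stroma lists were divided between the directions, although their sums were higher in replicate 2. The 10 neural genes, led by Mir338, summed to 386 and 330.0 CPM in replicates 2 and 1, with 2 higher, 1 lower and 1 not passing. The 3 Mir124a genes, Mir9-1 and Mir9-2 were at 0, and Mir9-3, with 6 counts in replicate 2 and 0 in replicate 1, was not tested. The liver gene Mir122 had 396 CPM in replicate 2 and 13.3 CPM in replicate 1.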

How the data were processed

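The authors deposited raw read counts per microRNA gene, 1 table per library with 3 count columns, on mm10 with GENCODE M21, per the labels and readmes. The aligner, trimming and counter were not given in the sources used here. The values identify the columns as unstranded, sense (used here) and antisense counts. Rows that name no gene (80.2% of reads in replicate 2, 84.3% in replicate 1) stayed out of library sizes and tests. All 2202 identifiers matched M21.

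CPM used assigned counts. Log2 ratios used CPM + 1 with TMM sizes from edgeR 4.0.16 in R 4.3.3. With 1 group, a quasi-likelihood test has no contrast, so genes with 10 or more summed counts entered an exact binomial test, two-sided, given those sizes (Benjamini-Hochberg over all genes, threshold 0.05; scipy 1.17.1). It was checked on simulated data with counting error alone, so the check does not cover variation between samples. Intervals are 95% Wilson for shares and Clopper-Pearson for ratios, the latter without the added 1 CPM. Windows of 20 bases were compared exactly, on both strands, between M21 microRNA transcripts, leaving out genes that overlap. The rest of the genome was not searched.

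Alternatives were DESeq2 1.42.0 size factors, plain totals, totals with multimapping reads, other count filters and pseudocounts, counts without strand, Bonferroni adjustment and each library alone. Named genes were the 8 members, 4 other striated muscle genes, those nearest in ratio to Mir206 (5) and Mir133b (3) and the highest of each marker list. Other genes were named as neighbours in rank or as list members after their values were seen. The set of genes to report and the lists were chosen with earlier results of these data known; the members were then found by name. Fisher's exact tests of partner ratios and shares were added after their values were seen.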

Additional observations from a re-analysis of the deposited data

How the results depend on the processing

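The 4 differing genes, 1 higher and 3 lower in replicate 2, were 4 again with DESeq2 size factors, plain totals, no count filter, a minimum of 100 counts, or multimapping reads added to the library sizes (chosen after seeing the data). They were 3 with the counts without strand, where Mir1a-2 has 0 counts, and 3 with Bonferroni adjustment, where Mir1a-1 (log2 ratio −1.25) no longer passed. Of 51 log2 ratios under alternatives none changed sign. Mir206 ranged from 2.38 to 2.71, Mir1a-2 from −1.17 to −0.81, Mir133b from −1.13 to −0.70 and Mir1a-1 from −1.35 to −0.78. Adding multimapping reads to the library sizes put the median of all tested genes at 0.17, against 0.02, and Mir133a-1 at −0.06. Of 32 mean levels under alternatives 8 moved by more than the SD over the libraries. The mean share of the 8 genes was 3.69% in the main setting and 5.04% with the counts without strand. It was 0.785% with multimapping reads added to the denominator only. In that setting the mean level of Mir133b went from 25.8 to 4.87 CPM and that of Mir1a-2 from 132 to 25.0 CPM. Multimapping reads of the 8 genes themselves were thus not counted for them. The ratio of Mir1a-2 to Mir133a-1 was 0 with the counts without strand. Each library alone gave 1.21% to 6.17% for the share of the 8 genes, 98.2% to 99.8% for the Mir206 and Mir133b locus in their counts, and 330.0 to 3903 for Mir206 over Mir133b, 7.29 to 12.3 for Mir1a-2 over Mir133a-1 and 3.0 to 5.00 for Mir1a-1 over Mir133a-2. No paired analysis was possible because the labels give 1 group. With 5 to 34 counts in replicate 2, Mir133a-2, Mir1a-1, Mir133a-1 and Mir133b are limited by depth. The levels of genes with copies leave out multimapping reads, and how many of those come from these genes was not tested.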
